A study of Homo sapiens with 13 samples.

Results

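The replication-dependent histone genes were followed through 40 ATAC-seq peaks, out of 129347 peaks in the deposited table, that overlapped an annotated transcript start of these genes. The rule for members uses gene names and no measured values: the protein-coding genes H1-1 to H1-6 and all genes named H2AC, H2BC, H3C or H4C followed by a number. The rule itself was set with earlier results of these data known. The annotation held 64 such genes, and 56 of them had at least 1 promoter peak. All 40 peaks passed the filter on low values, so that every promoter peak of the group was tested. A further 8 genes had no peak over a start and gave no promoter value.

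The libraries, 3 from G1 and 3 from M-phase, are of T98G, a human glioblastoma cell line in long use. In ATAC-seq a transposase, Tn5, places sequencing adapters into exposed DNA, and open chromatin therefore collects more reads. The G1 cells had been kept without serum for 72 h, while the M-phase cells were starved for 48 h, released for 36 h in medium that held serum and nocodazole, a drug that blocks the mitotic spindle, and collected by shaking off the rounded cells. The labels give HiSeq for G1 and both a HiSeq and a NextSeq run for each M-phase replicate, of which the table has 1 column each. No source used here says how these runs entered the column. Phase, serum, nocodazole and, if NextSeq reads were included, sequencing platform cannot be told apart. The labels do not say whether replicates came from separate cultures, and p-values then measure only the spread between these libraries.

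Replication-dependent histone genes supply the core histones H2A, H2B, H3 and H4 and the linker histone H1 that package newly copied DNA. They are transcribed mainly in S phase, sit in dense clusters on chromosomes 6 and 1, mostly lack introns, and are read out in nuclear compartments called histone locus bodies, where the coactivator NPAT is concentrated. Their mRNAs are not polyadenylated. They end after a short stem-loop that is bound by SLBP and cut with the help of the U7 small nuclear RNA. Upstream, H2A and H2B genes often share a promoter and face away from each other, and the promoters carry elements for each histone type, such as an octamer for H2B and a site bound by HINFP for H4.

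The annotated members carry that stem-loop. A match to its consensus lay within 150 bases after the stop codon in 61 of 64 genes, at a distance of 23 to 68 bases with a median of 37. Searched on the strand of the gene in hg19, the 4 most frequent forms, each printed whole and in capitals, are shown because they separate H4 from the other types.
38 genes: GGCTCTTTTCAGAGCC
8 genes: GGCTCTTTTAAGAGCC
8 genes, all H4: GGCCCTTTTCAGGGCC
4 genes, all H4: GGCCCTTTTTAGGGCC
All 12 H4 genes with a match had 1 of the last pair of forms, and no gene of another type did. No match was found in that window for H3C6, H2BC10 and H4C13.

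The sequences before the starts differed by histone type. Promoters from peaks with the largest or the smallest change of a type are shown, as the 200 bases before the start on the strand of the gene in hg19. Capitals mark exact matches on either strand to any of 7 short motifs that are known from histone promoters. TATAAA is the TATA box to which the general machinery binds. The CCAAT box is a site of the factor NF-Y. ATTTGCAT is the octamer that POU factors bind. The letters TTTGGCGC and, as a second form, TTTCCCGC are those of E2F sites. GGTCCG is part of the element of H4 genes that HINFP binds. The H1 element is AAACACA. On the opposite strand the first of these reads TTTATA, and positions are negative before the start.
H1-4 (chr6:26156357-26156556, plus strand, largest change of H1): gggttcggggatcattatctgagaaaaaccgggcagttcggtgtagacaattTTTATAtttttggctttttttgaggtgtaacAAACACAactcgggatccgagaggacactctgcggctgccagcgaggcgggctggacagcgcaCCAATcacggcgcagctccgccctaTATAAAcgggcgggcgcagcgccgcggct
H1-3 (chr6:26235216-26235415, minus strand, smallest change of H1): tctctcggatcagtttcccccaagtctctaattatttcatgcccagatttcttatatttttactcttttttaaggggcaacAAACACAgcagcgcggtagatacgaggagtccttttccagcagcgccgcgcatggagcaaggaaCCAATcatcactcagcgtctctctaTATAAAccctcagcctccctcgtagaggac
H2AC7 (chr6:26199522-26199721, minus strand, largest change of H2A): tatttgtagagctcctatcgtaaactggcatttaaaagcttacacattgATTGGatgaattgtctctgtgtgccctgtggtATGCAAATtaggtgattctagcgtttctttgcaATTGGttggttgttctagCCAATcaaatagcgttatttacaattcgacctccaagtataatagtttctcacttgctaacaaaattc
H2BC5 (chr6:26158150-26158349, plus strand, in the peak with the largest change of H2B): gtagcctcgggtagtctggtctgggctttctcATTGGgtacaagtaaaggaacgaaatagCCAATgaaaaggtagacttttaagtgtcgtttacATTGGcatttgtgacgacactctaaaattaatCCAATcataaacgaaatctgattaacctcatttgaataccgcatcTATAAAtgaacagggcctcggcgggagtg
H2BC6 (chr6:26183789-26183988, plus strand, smallest change of H2B): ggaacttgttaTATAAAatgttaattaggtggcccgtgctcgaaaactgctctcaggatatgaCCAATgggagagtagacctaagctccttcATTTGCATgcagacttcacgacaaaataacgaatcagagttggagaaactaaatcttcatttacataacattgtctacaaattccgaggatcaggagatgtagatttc
H3C8 (chr6:26271642-26271841, minus strand, largest change of H3): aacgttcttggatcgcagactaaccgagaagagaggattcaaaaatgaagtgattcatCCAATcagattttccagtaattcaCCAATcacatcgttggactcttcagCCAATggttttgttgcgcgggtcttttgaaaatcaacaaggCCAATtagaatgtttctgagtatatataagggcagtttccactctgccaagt
H3C6 (chr6:26224227-26224426, plus strand, before the alternative start that lies in its peak, smallest change of H3): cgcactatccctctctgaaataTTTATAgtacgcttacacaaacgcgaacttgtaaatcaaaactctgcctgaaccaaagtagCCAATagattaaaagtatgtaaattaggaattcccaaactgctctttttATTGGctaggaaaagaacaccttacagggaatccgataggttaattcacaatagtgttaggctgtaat
H4C16 (chr12:14924066-14924265, minus strand, smallest change of H4): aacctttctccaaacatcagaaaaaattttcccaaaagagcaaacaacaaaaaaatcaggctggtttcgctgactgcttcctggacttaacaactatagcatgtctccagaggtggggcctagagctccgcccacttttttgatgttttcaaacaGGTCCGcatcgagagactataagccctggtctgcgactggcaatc
Both H1 promoters held the H1 element at -117 and -119, a CCAAT box at -54 and -55, and a TATA box at -29 and -30. H3C8 held 4 CCAAT boxes between -142 and -52 and no exact TATAAA. H4C16 held GGTCCG at -45 and no other match within these 200 bases.

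Of 10 H2A and H2B pairs that face away from each other, 8 had a peak over both starts, with 193 to 250 bases between the starts over all 10. The complete stretch between the starts is shown for the pair with the largest and the pair with the smallest change, on the plus strand.
H2AC14/H2BC14 (chr6:27782556-27782799): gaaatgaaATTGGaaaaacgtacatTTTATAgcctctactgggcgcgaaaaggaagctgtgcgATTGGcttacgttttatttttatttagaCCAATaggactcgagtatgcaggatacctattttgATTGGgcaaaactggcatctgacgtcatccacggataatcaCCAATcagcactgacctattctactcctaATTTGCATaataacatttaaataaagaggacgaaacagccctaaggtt
H2BC12/H2AC12 (chr6:27114635-27114884): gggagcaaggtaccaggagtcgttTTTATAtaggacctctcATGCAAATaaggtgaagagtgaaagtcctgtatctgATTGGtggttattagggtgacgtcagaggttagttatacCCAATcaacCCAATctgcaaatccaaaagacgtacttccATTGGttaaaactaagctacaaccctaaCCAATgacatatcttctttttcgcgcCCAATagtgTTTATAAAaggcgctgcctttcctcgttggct
Both stretches held a single octamer, at base 197 of 244 in H2AC14/H2BC14 and at base 42 of 250 in H2BC12/H2AC12. In each case it lay nearer to the start of the H2B gene. CCAAT boxes numbered 5 in the first stretch and 6 in the second.

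Counted over windows from 250 bases before to 50 bases after the canonical start, CCAAT was found in 85.9% of the 64 members and in 36.0% of 19874 protein-coding genes. It was in all H1, H2A, H2B and H3 members but in only 30.8% of the 13 H4 members. TATAAA was found in 67.2% of members against 9.63% of all genes, and in 35 members it lay on the strand of the gene between positions -33 and -26. ATTTGCAT was found in 12 of 16 H2A and 12 of 16 H2B members, in no H1, H3 or H4 member, and in 1.58% of all genes. The H2A and H2B counts are not independent. In pairs that face away from each other the windows of both genes overlap, so that 1 site of any motif can count for both. Of 10 such pairs 7 held the octamer. GGTCCG was in 84.6% of H4 members against 14.8% of all genes, and AAACACA in all 6 H1 members against 4.14%. TTTCCCGC was found in 3.12% of members against 2.24% of all genes, and TTTGGCGC in none of the 64 against 0.86%, which says only that these letters are absent from these windows. All matches are descriptions of the reference sequence on both strands, and no factor was measured.

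Promoters of replication-dependent histone genes were more accessible in M-phase than in G1. Of the 40 peaks, 38 were higher in M-phase at an adjusted p under 0.05 (limma on log2(scaled count + 8), Benjamini-Hochberg over 73121 peaks), none was lower and 2 were not called. The count of lower peaks was also 0 at an unadjusted p under 0.05, and 0 with edgeR and DESeq2. The median log2 change was 1.27, with a range of -0.07 to 1.91, and 32 peaks had a log2 change of at least 1. In 36 of 40 peaks all 3 M-phase libraries lay above all 3 G1 libraries. Promoter peaks in general were also more often higher than lower. Among 13131 tested peaks over a protein-coding start, 47.1% were higher and 5.29% lower in M-phase, with a median log2 change of 0.45. A log2 change of at least 1 was found in 16.2% of them, and M-phase libraries all above G1 libraries in 52.3%. Histone peaks are wide, with a median of 1646 bp, and of promoter peaks at least 1000 bp wide 59.6% were higher, with a median log2 change of 0.60. Over the complete set of tested peaks, accessible sites of any kind, the share was 14.3% for higher and 13.1% for lower, with a median log2 change of 0.02. The members were not tested as a set against other promoters.

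**Figure D1:**
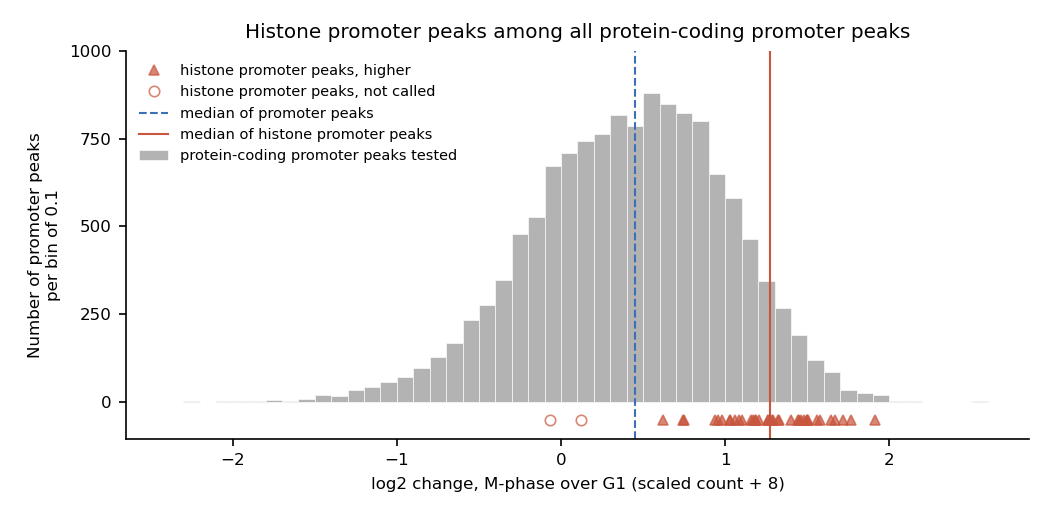
Grey bars count the 13131 tested protein-coding promoter peaks by log2 change (M-phase over G1, scaled count + 8) in bins of 0.1, and symbols under the axis mark the 40 histone promoter peaks. The histone peaks centre on 1.27 (solid line) and the promoter peaks on 0.45 (dashed line), with the 2 histone peaks that were not called (open circles) to the left of both.

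Relative to other promoters, histone promoters had higher counts in M-phase, while their place in G1 depended on whether width was taken into account. In G1 the median histone promoter peak had 81.5 scaled counts per kb of peak, under the median of 111 per kb of all protein-coding promoter peaks. In M-phase it had 225 per kb, above their median of 155 per kb. Per peak, with no correction for width, the median log2(scaled count + 8) of histone peaks in G1 was 7.34, 7.02 and 7.48, beside 7.14, 7.05 and 7.36 for promoter peaks, and thus higher in 2 of 3 libraries. In M-phase it was 8.32, 8.54 and 8.71 beside 7.56, 7.68 and 7.72, higher in all 3. Histone promoter peaks made up 0.176, 0.138 and 0.154% of all scaled counts in peaks in the G1 libraries and 0.307, 0.323 and 0.324% in the M-phase libraries. Every M-phase library gave them a larger share than every G1 library. Because a share is taken within a library, it does not depend on how libraries were scaled to each other. It does depend on the counts in all other peaks. With every library set to an equal total in peaks, promoter peaks in general also rose relative to all peaks. The median log2 change was then 0.93 for histone peaks, 0.12 for promoter peaks and -0.23 for all peaks tested.

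**Figure D2:**
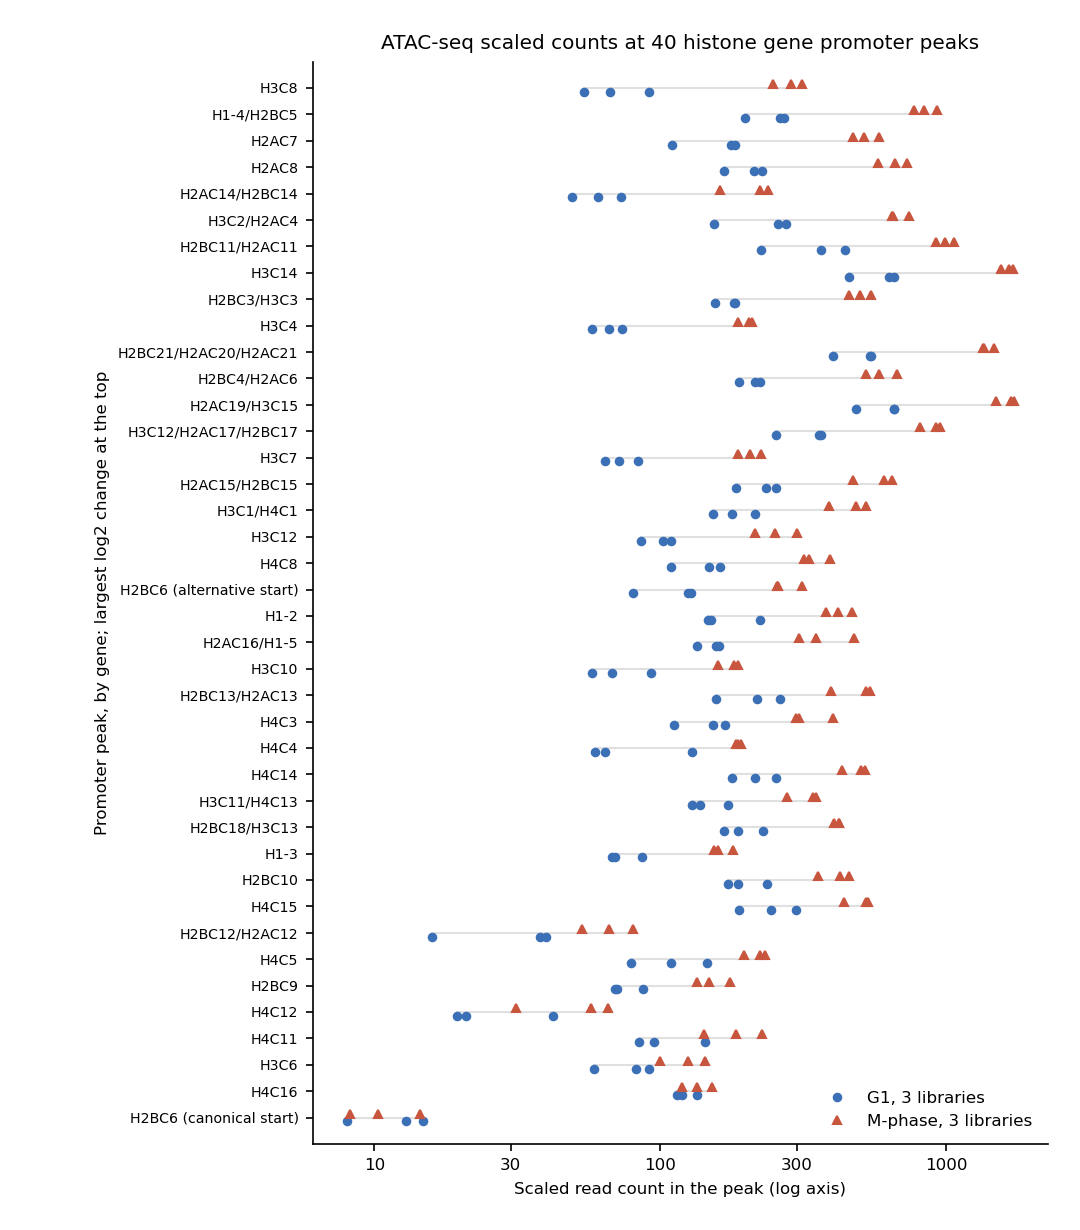
Scaled read counts of the 40 histone promoter peaks in each library (horizontal log axis), with G1 libraries as circles and M-phase libraries as triangles, ordered by log2 change with the largest at the top. In 36 rows the triangles lie to the right of all circles, and the 4 rows with overlap are H4C12, H4C11, H4C16 and the canonical start of H2BC6, all near the bottom.

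H1 genes encode the linker histone that binds DNA between nucleosomes. All 4 peaks with an H1 start were higher, with a median log2 change of 1.26. The peak shared by H1-4 and H2BC5 (chr6:26156461-26159166) had scaled counts of 271.4, 197.7 and 263 in G1 and of 768.3, 834.0 and 925.8 in M-phase. The lowest M-phase library was well above the highest G1 library. The mean rose from 244 ± 40.4 to 843 ± 79.1 (SD, n = 3), a log2 change of 1.76 ± 0.16 (SE, adjusted p from limma 5.31e-15) and the largest of all H1, H2B and shared peaks. H1-3 (chr6:26233682-26235321) had 86.5, 69.5 and 68 in G1 and 153.7, 158.6 and 179.0 in M-phase. Its libraries did not overlap either, and its log2 change of 1.06 ± 0.21 (SE, adjusted p 2.62e-05) was the smallest of H1. H1-2 rose by 1.26, and so did the peak shared by H2AC16 and H1-5. H1-1 and H1-6, the testis-specific linker histone, had no peak over a start.

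H2A and H2B form the dimers on the outer faces of the nucleosome core. All 13 peaks with an H2A start were higher, with a median log2 change of 1.46 and no overlap between libraries in any of the 13. Of the 15 peaks with an H2B start 14 were higher, with a median of 1.33. H2AC7 (chr6:26198588-26200205) had 181.9, 110.2 and 177 in G1 and 472.9, 515.5 and 581.3 in M-phase, and the phases were far apart. This was a log2 change of 1.72 ± 0.18 (SE, adjusted p from limma 7.53e-13), the largest of H2A. H2AC8, the only other peak with an H2A start alone, rose by 1.67. The 7 peaks with starts of H2A and H2B alone were all higher, with a median of 1.46.

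Among the peaks over pairs that face away from each other, H2AC14/H2BC14 (chr6:27782011-27782947) had 60.6, 49.2 and 73 in G1 and 161.1, 223.3 and 238.7 in M-phase. The M-phase libraries stood apart from the G1 libraries, with a log2 change of 1.64 ± 0.21 (SE, adjusted p from limma 7.39e-10). At the other end, H2BC12/H2AC12 (chr6:27114306-27115258) had 15.9, 39.8 and 38 in G1 and 53.1, 80.3 and 66.4 in M-phase. Its counts were low and 1 G1 library lay well under the other two. The log2 change was 0.98 ± 0.26 (SE, adjusted p 0.0019), and it was no longer called without G1 replicate 1, at 0.65 with an adjusted p of 0.0621. The other 6 such pairs in shared peaks rose by 1.18 to 1.56.

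H2BC6 was the exception among H2B genes and has 2 promoter peaks. Over its canonical start (chr6:26183863-26184246), a peak of 384 bp, scaled counts were 12.9, 14.8 and 8 in G1 and 10.3, 14.4 and 8.2 in M-phase. The phases overlapped fully, with a log2 change of -0.07 ± 0.28 (SE, adjusted p from limma 0.898), the lowest of all members. Over an alternative start of the same gene (chr6:26171665-26173137), which also holds a start of a gene outside the list, counts were 128.2, 80.5 and 125 in G1 and 255.0, 257.9 and 313.7 in M-phase. There the M-phase libraries were all higher, with a log2 change of 1.27 ± 0.19 (SE, adjusted p 1.36e-07). The canonical peak had mean scaled counts of only 11.9 in G1 and 11.0 in M-phase, close to the minimum of 10 in the filter.

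H3, whose tail carries many of the known histone modifications, forms the tetramer with H4 at the centre of the nucleosome. All 14 peaks with an H3 start were higher and none overlapped between phases, with a median log2 change of 1.42. H3C8 (chr6:26270915-26272106) had 66.6, 53.9 and 91 in G1 and 248.0, 312.7 and 287.3 in M-phase. Every M-phase library was above every G1 library and the mean rose from 70.5 ± 18.9 to 283 ± 32.6 (SD, n = 3). This was a fold of 4.01 and a log2 change of 1.91 ± 0.20 (SE, adjusted p from limma 8.57e-13), the largest of all 40 peaks and above 99.8% of promoter peaks. H3C6 (chr6:26223585-26224818), whose peak holds an alternative start and lies 545 bases from the canonical start, had 82.5, 58.6 and 91 in G1 and 99.7, 125.3 and 143.4 in M-phase. The phases were adjacent without overlap, at a log2 change of 0.62 ± 0.22 (SE, adjusted p 0.022). That call was lost without G1 replicate 2 (0.45, adjusted p 0.148), without M-phase replicate 2 (0.60, adjusted p 0.0843) and without M-phase replicate 3 (0.51, adjusted p 0.138). The remaining H3 starts in peaks with no start of another member, H3C4, H3C7, H3C10, H3C12 and H3C14, rose by 1.20 to 1.50. The peak of H3C14 also holds a start of HIST2H2AA3, an H2A gene that the annotation lists only by this older symbol and that the rule leaves out.

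Peaks that H3 shares with other types were followed as well. H3C2/H2AC4 (chr6:26031826-26034484) had 258.5, 153.9 and 276 in G1 and 647.6, 739.6 and 652.0 in M-phase, a clear separation with a log2 change of 1.57 ± 0.17 (SE, adjusted p from limma 4.92e-12). H2BC18/H3C13 (chr1:149782494-149785339) had 228.7, 166.4 and 187 in G1 and 405.8, 420.7 and 422.0 in M-phase. It also showed no overlap, and its log2 change of 1.08 ± 0.18 (SE, adjusted p 5.73e-07) was among the smallest of shared peaks. H2AC19/H3C15 (chr1:149822042-149825362) had the highest mean of all members, with 658.1, 482.8 and 656 in G1 and 1490, 1683 and 1728 in M-phase. The M-phase libraries were again all higher, with a log2 change of 1.45 ± 0.15 (SE, adjusted p 1.99e-13).

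Peaks with an H4 start had the lowest median of the 5 types. Of 11 peaks with an H4 start 10 were higher, with a median log2 change of 1.10, and only 7 reached a log2 change of 1. In 3 of the 11 the phases overlapped. The 9 peaks with H4 starts alone had a median of 1.03, and in the 2 peaks that H4 shares with H3, H3C1/H4C1 and H3C11/H4C13, the changes were 1.32 and 1.10. H3C1/H4C1 (chr6:26020540-26022549) had 178.0, 152.3 and 214 in G1 and 389.3, 483.7 and 522.6 in M-phase, with no overlap and a log2 change of 1.32 ± 0.18 (SE, adjusted p from limma 3.30e-09). H3C11/H4C13 (chr6:27839082-27841605) had 138.2, 128.9 and 172 in G1 and 276.8, 342.0 and 350.3 in M-phase. The M-phase libraries lay above the G1 libraries here too, at 1.10 ± 0.18 (SE, adjusted p 1.17e-06). The types were not tested against each other, since many peaks hold starts of several types.

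H4C16, the only member on chromosome 12, did not pass the test. Its peak (chr12:14922562-14924194) had 134.2, 114.8 and 119 in G1 and 133.9, 151.2 and 118.9 in M-phase. The phases overlapped, with means of 123 ± 10.2 and 135 ± 16.2 (SD, n = 3) and a log2 change of 0.12 ± 0.20 (SE, adjusted p from limma 0.707). In contrast to the canonical peak of H2BC6, this peak is 1633 bp wide, spans the canonical transcript and had a G1 level of 75.1 scaled counts per kb, close to the median of 69.7 per kb over peaks with an H4 start. Its M-phase level was 82.5 per kb, where the median of those peaks was 145 per kb.

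Single libraries decided the call at 2 other H4 peaks. H4C11 had 84.5, 95.3 and 143 in G1 and 141.7, 184.6 and 227.6 in M-phase, so that the lowest M-phase library lay just under the highest G1 library. Its log2 change of 0.75 ± 0.21 (SE, adjusted p from limma 0.0032) became 0.59 with an adjusted p of 0.0652 without M-phase replicate 3. H4C12, a peak of 421 bp, had 20.9, 19.5 and 42 in G1 and 57.3, 31.3 and 65.9 in M-phase, with an overlap of 1 library in each phase. At 0.75 ± 0.27 (SE, adjusted p 0.0271) it was not called without G1 replicate 1 (0.63, adjusted p 0.103), G1 replicate 2 (0.60, adjusted p 0.134), M-phase replicate 1 (0.66, adjusted p 0.132) or M-phase replicate 3 (0.57, adjusted p 0.184).

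**Figure D3:**
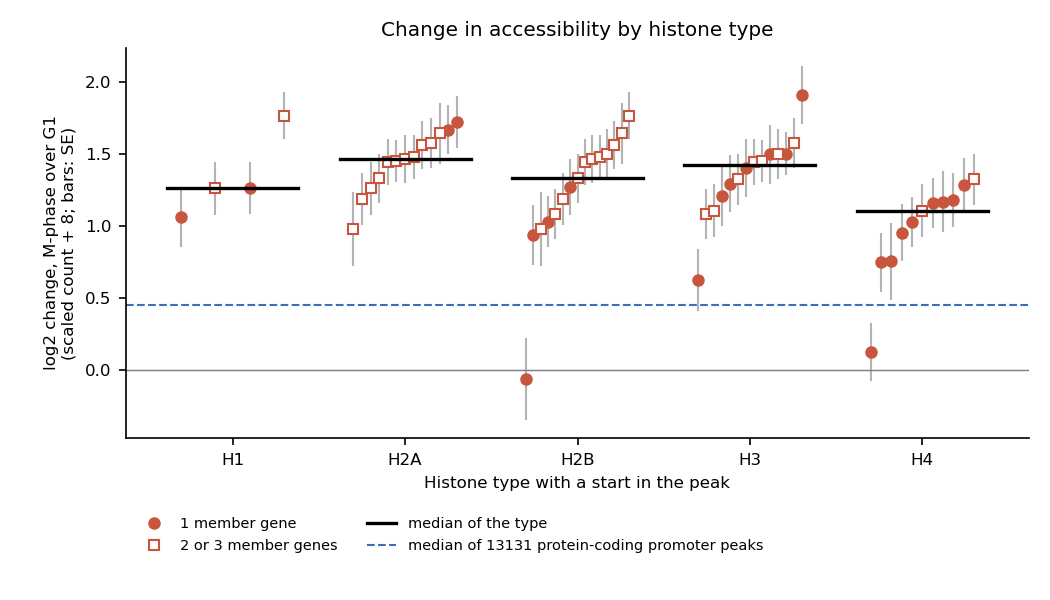
The log2 change (M-phase over G1, scaled count + 8, bars SE) of each peak is plotted under every histone type with a start in it, so that shared peaks (open squares) appear more than once. Black bars are the medians, 1.26 for H1, 1.46 for H2A, 1.33 for H2B, 1.42 for H3 and 1.10 for H4, all above the dashed line at 0.45, the median of all protein-coding promoter peaks.

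The higher accessibility was found in each gene cluster on chromosomes 6 and 1 that had promoter peaks. Genes less than 500 kb apart were taken as a cluster. In the first cluster on chromosome 6 (chr6:25723625-26285866), with 30 genes, 20 of 21 peaks were higher, with a median log2 change of 1.28. In the second (chr6:27093676-27115341), with 5 genes, 2 of 2 peaks were higher, with a median of 1.27, and 1 of 2 without G1 replicate 1. The third (chr6:27775257-27861669), with 16 genes, had 10 of 10 peaks higher and a median of 1.23. The chromosome 1 cluster (chr1:149754245-149859515), with 10 genes, had 6 of 6 peaks higher and a median of 1.30. The peaks of the chromosome 1 cluster had the highest levels, with a median of 159 scaled counts per kb in G1 and 384 per kb in M-phase, against 75.5 and 187 per kb in the first chromosome 6 cluster.

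A second pair of genes on chromosome 1, H2AC25 and H2BC26 (chr1:228622478-228650805), had no promoter peak. Small peaks lay 324 and 414 bases from their canonical starts, and both had too few reads to be tested, with mean scaled counts of 8.40 and 6.40 in G1 and of 5.87 and 6.97 in M-phase. The other 6 genes without a promoter peak lie on chromosome 6. H2AC1 and H2BC1, histone variants of the testis, were 62116 and 61901 bases from the nearest peak. The distances were 2525 bases for H1-1, 2531 for H1-6, 2762 for H4C7 and 514 for H4C9.

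Other peaks inside the clusters behaved differently in part. The clusters held 28 further peaks, of which 10 had enough reads to be tested. Of these 3 were more and 1 was less accessible in M-phase, with a median log2 change of 0.37. Over all peaks tested 14.3% were higher and 13.1% lower. A start of a gene outside the list lay in 5 of the 10, with a median of 0.45, the same as over all protein-coding promoter peaks. So few peaks show nothing particular to the clusters. The peak over the start of TRIM38 (chr6:25962162-25963748), a gene of the ubiquitin ligase family, was the lower one, at -0.91. A higher one (chr6:26026422-26027818) covers HIST1H4B, an H4 gene that the annotation lists only by this older symbol and that the rule therefore leaves out. It had 142.2, 75.8 and 141 in G1 and 274.8, 325.9 and 381.1 in M-phase, with no overlap, and a log2 change of 1.43 ± 0.20 (SE, adjusted p from limma 6.65e-09). The remaining higher peaks were a 285 bp peak between genes (chr6:26195912-26196196, 1.44) and a 284 bp peak in H2AC6 (chr6:26126245-26126528, 0.72). These peaks were singled out after their values were seen.

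**Figure D4:**
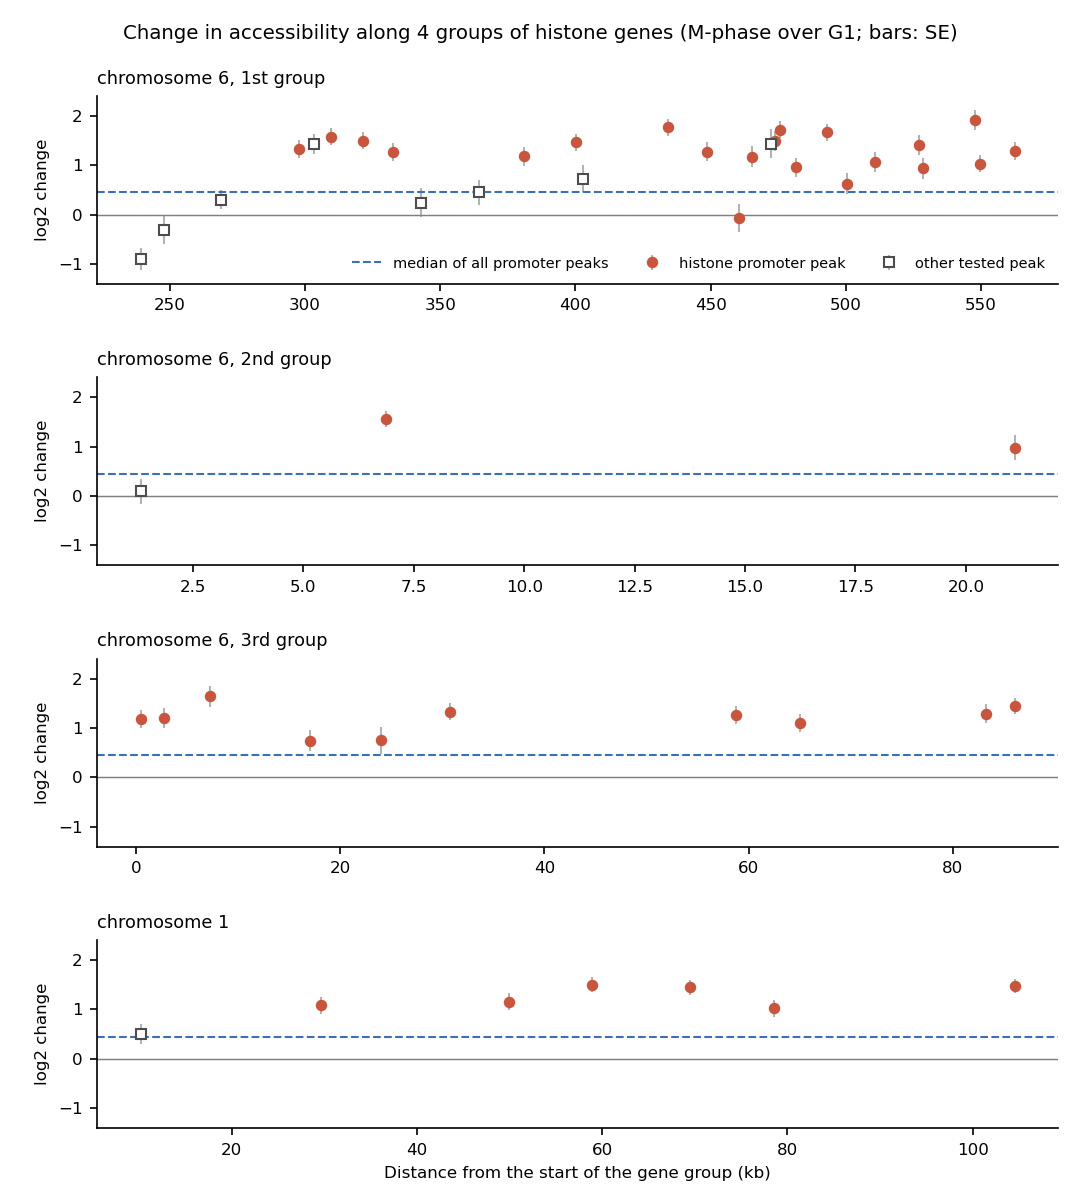
The log2 change (M-phase over G1, bars SE) of histone promoter peaks (filled circles) and of other tested peaks (open squares) is plotted against the distance in kb from the start of each cluster, for 3 clusters on chromosome 6 and 1 on chromosome 1. All but 1 of the histone peaks shown lie above the dashed line at 0.45, the median of protein-coding promoter peaks, while the other tested peaks range from -0.91 to 1.44.

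Peaks over 1 member gene and peaks over several were both higher in M-phase in most cases. The 24 peaks over starts of 1 member gene had a median log2 change of 1.17, with 22 higher, and the 16 peaks over starts of 2 or 3 members had a median of 1.45, with all 16 higher. Over the 40 peaks, the log2 change went with the mean scaled count (Spearman's rho 0.61) and with width (0.38), and hardly with the observed over expected ratio of CpG (-0.04). Over the 13131 promoter peaks the same measures gave 0.53 for the mean count and 0.45 for width. These are correlations across peaks of the same 6 libraries, which share depth and scaling, and peaks are not replicates. The order of the members was much the same in both phases, with a rho of 0.88 between the G1 and M-phase counts per kb. The peaks are long relative to these short genes, and in 44 of 55 genes the peak over the canonical start covered the complete canonical transcript, so that counts are not from the promoter alone. A start of a gene outside the list lay in 12 of the 40 peaks, whose counts cannot be divided between the genes, and of the other 28 peaks 26 were higher, with a median log2 change of 1.19.

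Histone genes have near-identical copies, and reads of such copies cannot be assigned. Reads with up to 3 mapping locations were kept by the authors, with 1 location reported. In 30 of the 40 peaks at least 90% of the 50-base words occur once in the genome, and of these 30 peaks 28 were higher, with a median log2 change of 1.29. The other 10 peaks were all higher, with a median of 1.12. At H4C14, H3C14, H2AC19/H3C15 and H4C15 on chromosome 1 the share of such words was 0%, and the values of these peaks, between 1.03 and 1.50, are those of the copies together.

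Genes that act on histone mRNA or its transcription were taken as a list for comparison. All 21 genes of the list had 1 promoter peak each, of which 16 were higher and 1 lower, with a median log2 change of 0.63. Over all promoter peaks 47.1% were higher, with a median of 0.45. Starts of other genes in the list peaks were not recorded, so that values may not be those of the named gene alone. NPAT, the coactivator of histone locus bodies, had 466.3, 422.7 and 613 in G1 and 630.3, 796.5 and 899.8 in M-phase, which did not overlap, with a log2 change of 0.63 ± 0.16 (SE, adjusted p from limma 0.0014). HINFP, which binds H4 promoters, had 0.80, and POU2F1, which binds the octamer, 1.06. SLBP, the stem-loop binding protein, had 1.02 and RNU7-1, the U7 small nuclear RNA, 1.09. YY1, a zinc finger factor, had the largest change at 1.46. CSTF2, a subunit of the cleavage stimulation factor, was lower, with 132.2, 118.8 and 164 in G1 and 59.7, 59.3 and 65.4 in M-phase, a log2 change of -1.06 ± 0.21 (SE, adjusted p 4.56e-05) and no overlap. LSM10 and LSM11 of the U7 particle, CASP8AP2 and the cyclin gene CCNA2 did not pass, with 0.40, 0.46, 0.33 and 0.18. These calls depended on the scaling. With the trended loess normalization 5 were higher and 3 lower, and NPAT and CCNE2 turned to the lower side at -0.35 and -0.30, and without M-phase replicate 3 the count of higher peaks was 10.

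Histone genes outside this group, most of them expressed throughout the cell cycle, were the second list. Of its 14 genes 9 had a promoter peak. Any annotated start of a gene was used, and starts of other genes in these peaks were not recorded. Of 11 such peaks 9 were higher and none lower, with a median log2 change of 0.82. Over all protein-coding promoter peaks 47.1% were higher and only 5.29% lower, with a median of 0.45, so that few lower peaks would be found in any list this short. The count of lower peaks was also 0 in limma at an unadjusted p under 0.05, in edgeR and in DESeq2. H3-3B, which encodes the replacement histone H3.3, had 2 peaks, at 1.85 (chr17:73774737-73776178) and 1.28 (chr17:73780410-73781802). The former had 296.3, 270.3 and 265 in G1 and 884.1, 1094 and 1089 in M-phase, with no overlap. The genes H3-3A, H2AZ2 and H2AX had 1.45, 1.49 and 1.30, beside a median of 1.27 over the replication-dependent histone promoter peaks. H2AZ1 had 0.65 and H1-10 0.67. The centromeric CENPA had 0.82 (chr2:26986798-26987976) and 0.45 (chr2:27008339-27009757), of which the last did not pass the test. For H3-3B and CENPA it was not recorded which peak holds the canonical start. MACROH2A1 had 0.01 and did not pass. With the trended loess normalization H2AZ1 and MACROH2A1 were lower, at -0.34 and -0.43.

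**Figure D5:**
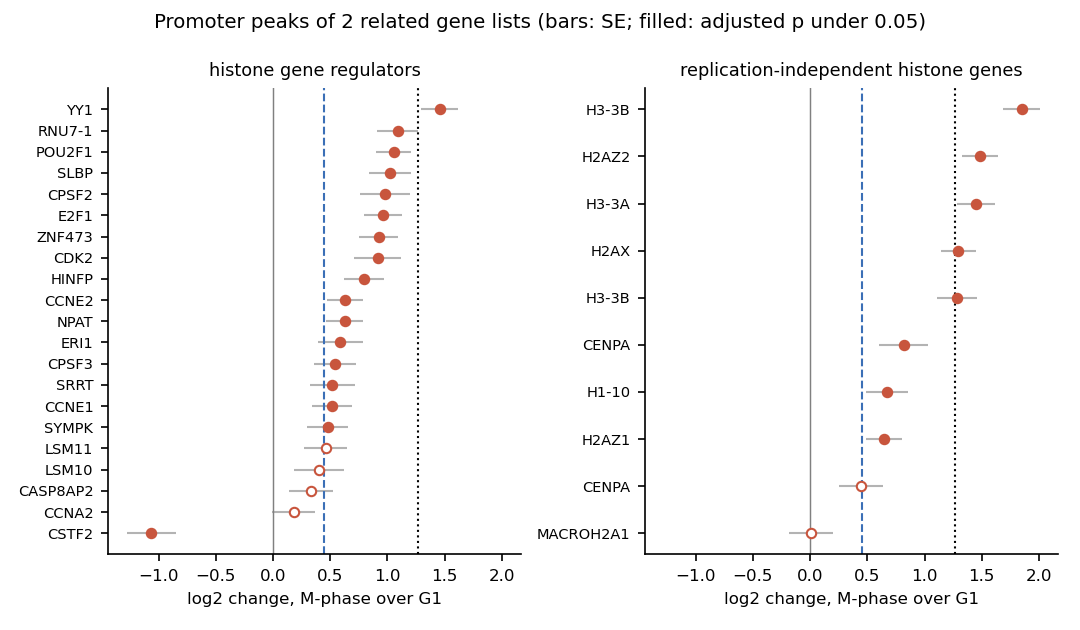
The log2 change (M-phase over G1, bars SE, filled symbols with an adjusted p under 0.05) of promoter peaks of 21 genes that act on histone genes or their mRNA (left) and of 10 of the 11 peaks of histone genes outside the replication-dependent group (right), where a gene with 2 peaks has 2 rows. The dashed line at 0.45 is the median of protein-coding promoter peaks and the dotted line at 1.27 the median of replication-dependent histone promoters, near which or above which lie YY1, H3-3B, H2AZ2, H3-3A and H2AX.

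The 38 called histone promoter peaks kept their direction under each alternative of the fit, while the size depended on the scaling. The 2 peaks that were not called changed sign, H4C16 with an equal total in peaks and with trended loess (lowest value -0.21) and the canonical peak of H2BC6 with trended loess and without G1 replicate 2 or M-phase replicate 3 (highest value 0.04). With every library set to an equal total in peaks the median over all peaks tested shifted by -0.26, and the median histone promoter peak was 0.93 beside 0.12 for promoter peaks, with 35 of 40 histone peaks and 32.2% of promoter peaks higher. With a trended loess normalization, which removes a trend of the change with read count, the medians were 0.69 and 0.07, with 35 histone peaks and 22.5% of promoter peaks higher. In each of 16 alternatives 38 histone peaks lay above the median promoter peak, and 33 were called higher in all of them. No histone peak was called lower in any.

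The reads behind these values differ by phase. Reads in peaks, recovered from the steps of the scaled values, numbered 4333935 to 5365024 in G1 and 12470564 to 14202790 in M-phase, so that M-phase counts carry less counting error. The markers of the line were seen in part. Of 8 glial and mesenchymal genes, OLIG2, SOX2, VIM, CD44 and FN1 had a promoter peak and GFAP, S100B and NES had none. Of the 6 peaks 5 could be tested and 3 were higher in M-phase, beside 47.1% of all protein-coding promoter peaks tested. Separate peaks of CD44 had 0.42, not called, and 1.59, higher.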

How the data were processed

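ATAC-seq was analysed for 3 G1 and 3 M-phase libraries of T98G cells. The chromatin fraction and input samples were not used. According to the study's methods, the authors removed adapters with cutadapt, trimmed 1 base from the 3′ ends, mapped reads to hg19 with Rbowtie in QuasR, allowing up to 3 locations and reporting 1, discarded mitochondrial reads (samtools) and used macs2 in broad mode on the merged replicates of a phase, then merged the peaks of the phases. Versions, and any shift of read ends for Tn5, are not given in the sources used here. The deposited signal is the number of reads per peak, which the authors scaled to the smallest library and which is rounded to 0.1. The deposited log2 changes and their SD columns hold the authors' own comparison and were not used. The number of other columns of per-sample values not used was 0.

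The filter on low values asked for the equivalent of 10 in a median-sized library, in 3 or more libraries, and for a total of at least 15, and 73121 of 129347 peaks passed. They were tested with limma 3.58.1 in R 4.3.3 (mean-variance trend, log2(scaled count + 8), no covariates, threshold 0.05 after Benjamini-Hochberg adjustment over all peaks tested). Fold changes on this scale understate the change of peaks with few reads. The fit was tested on simulated data. Alternatives were TMM, an equal total in peaks, trended loess, other filters, a pseudocount of 1, a replicate block, each library left out, and edgeR 4.0.16 and DESeq2 1.42.0 on whole reads recovered from the scaled values, on which at least 99.89% of values lay within the rounding of 0.05. Members were also restricted to outer starts, to peaks with no other gene's start and to unique sequence, and widened to older symbols, the last chosen after seeing the data.

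Starts came from GENCODE release 44 lifted to GRCh37, whose chromosomes match hg19, and sequences from GRCh37 with pysam 0.24.0. Sequences were taken from before the start instead of around it, to leave out transcribed bases. The values of 1 gene of the second list, which its counts and median include, and 1 promoter sequence are not reported here. Values in every library are given for the largest and smallest log2 change of each histone type, for the highest mean, and for the 3 largest and 3 smallest changes of shared peaks. Other peaks given in full were chosen after their values were seen. Members, lists and rules were chosen with earlier results of these data known.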

Additional observations from a re-analysis of the deposited data

How the results depend on the processing

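The count of histone promoter peaks higher in M-phase was 35 to 38 in 16 alternatives of the fit, and no such peak was called lower. All 40 were tested except with at least 10 in every library (38 of 39) and without M-phase replicate 2 (37 of 39), where the canonical peak of H2BC6 was filtered out. The median log2 change of histone promoter peaks, 1.27 as reported, was 0.93 with an equal total in peaks and 0.69 with the trended loess normalization, the cause was not tested, and it ranged from 1.17 to 1.36 when a library was left out. Of all calls over the 73121 peaks, 52.2% were on the higher side as reported, 48.7% with TMM, 44.4% with loess and 26% with an equal total. Under loess the promoter peaks of histone gene regulators gave 5 higher and 3 lower, and those of histone genes outside the replication-dependent group 2 lower. With a library left out, 10 to 19 regulator peaks and 1 to 2 peaks of the second chromosome 6 cluster were higher. H4C15 was not called under loess (0.30, adjusted p 0.0525), H3C6 with an equal total (0.30, adjusted p 0.244) or loess (0.45, adjusted p 0.0716), H4C11 with these same settings (0.41, adjusted p 0.0599, and 0.42, adjusted p 0.0657), and H4C12 with an equal total (0.47, adjusted p 0.167) or DESeq2 (0.90, adjusted p 0.0568). With 28 peaks that overlap no start of another gene 26 were higher, and with 30 peaks of unique sequence 28. Replicate numbers did not pair the samples, with correlations of deviations of 0.0059, -0.0101 and 0.0284. Not every library correlated best with its own number, and with the replicate block 38 histone peaks were higher. Counts were low at the canonical peak of H2BC6 and at H4C12, where G1 means were 11.9 and 27.5 scaled counts, and counting error is then large. Whether depth bears on these calls was not tested.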
